A study of Mus musculus with 21 samples.

Results

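The renin-angiotensin-aldosterone genes described here are 9 members named by gene symbol: Ren1, Agt, Ace, Agtr1a, Agtr2, Atp6ap2, Enpep, Lnpep and Nr3c2. They were taken from the 23718 genes with reads in RNA sequencing of whole mouse heart tissue. Each of the 21 libraries came from a heart of a male C57BL/6NJ mouse that was 8 to 10 weeks old when assigned to a diet. The 4 groups crossed diet with vector. Chow control (n = 4) received chow and the null vector, and chow renin (n = 6) received chow and AAV-Renin, an adeno-associated virus that carries renin. The other groups ate a diet that drew 60% of its kcal from fat, for 10 weeks, with the null vector in high-fat control (n = 6) or AAV-Renin in high-fat renin (n = 5). Tissue was taken 6 weeks after retroorbital injection. The sample labels name the control vector groups novirus, whereas the series text names a null vector. High-fat diet with renin is the study's model of HFpEF, heart failure with preserved ejection fraction, and the other groups are its constituents and control. The promoter that drives renin in the vector, and the tissue that expresses it, are not given in the sources used here. Each library was taken as 1 mouse, since the series text counts mice per group, and the labels name no batch.

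Renin, an enzyme released by the kidney, cleaves angiotensinogen (Agt) to angiotensin I. Angiotensin-converting enzyme (Ace), which sits on the surface of endothelial cells, turns angiotensin I into angiotensin II. Angiotensin II raises blood pressure mainly through the AT1 receptor, whose main mouse form is Agtr1a, and Agtr2 encodes the AT2 receptor, which is often described as opposing it. Enpep (aminopeptidase A) and Lnpep (insulin-regulated aminopeptidase) shorten angiotensin peptides, and Atp6ap2, the (pro)renin receptor, is also an accessory protein of the proton pump that acidifies cell compartments. Aldosterone, made in the adrenal cortex, acts through the mineralocorticoid receptor (Nr3c2), which in the heart also binds glucocorticoids.

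Each library held 18.7 to 29.3 M estimated reads, and the chow control libraries (18.74 to 21.41 M) all lay below those of the other groups (22.81 M and above). All 6 cardiomyocyte markers (Myh6, Tnnt2, Tnni3, Actc1, Ryr2 and Pln) had reads in each group, and their summed level was 40100 to 60660 CPM, counts scaled to the size of the library. The chow renin libraries stood apart. Their 6 central neuron markers summed to 162 to 262 CPM, against 50.2 to 88.5 in the other groups, and their 6 astrocyte markers to 86.8 to 152 CPM, against 21.4 to 41.0. Of each list, 6 of 6 markers had reads in each group. Genes of the circadian clock that peak by day, 8 of 8 with reads, summed to 703.5 to 809 CPM in chow control and 666 to 733 in high-fat control, but to 576 to 662.5 in chow renin and 527 to 653.5 in high-fat renin. The ranges of both renin groups lay below those of both control groups. The part of these differences in the results below was tested only by adding each score to the fit. Across the groups, 5 libraries stood apart in atrial markers, 6 of 6 with reads in each group: chow control replicate 3, chow renin replicates 1 and 3, high-fat control replicate 3 and high-fat renin replicate 3 summed to 343 to 756 CPM, and the other 16 to 22 to 51.7 CPM. The same 5 were highest in adipocyte markers, at 4.29 to 29.9 CPM against at most 1.75 CPM. Results for Ace and Agtr1a are given with and without these 5.

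The angiotensin-converting enzyme gene has 2 start sites. The sequences before both are shown because the quantification assigned estimated reads to transcripts of each. The gene lies on chromosome 11, from 105967945 to 105989964, plus strand, in GRCm38. The upstream start gives the long somatic form. The internal start, within the gene, gives the short form known from male germ cells. The 250 bases before each start, from RefSeq on GRCm38.p6, plus strand, span chr11:105967698-105967947 and chr11:105974939-105975188. Capitals mark matches on either strand to the GC box GGGCGG, to TATAA and to TGANGTCA, a motif like the cyclic AMP response element.
Ace upstream start: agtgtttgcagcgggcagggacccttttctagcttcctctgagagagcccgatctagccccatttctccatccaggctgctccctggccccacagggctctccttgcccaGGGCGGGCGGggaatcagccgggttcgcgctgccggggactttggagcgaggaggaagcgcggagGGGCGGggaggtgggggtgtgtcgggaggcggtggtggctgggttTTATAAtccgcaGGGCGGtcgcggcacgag
Ace internal start: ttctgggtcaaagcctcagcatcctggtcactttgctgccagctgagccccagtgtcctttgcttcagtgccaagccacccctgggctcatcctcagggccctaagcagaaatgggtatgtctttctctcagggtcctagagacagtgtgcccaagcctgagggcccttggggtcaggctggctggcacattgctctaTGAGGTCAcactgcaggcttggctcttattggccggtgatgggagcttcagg
The upstream window held 4 matches to GGGCGG, of which 2 overlap, and 2 matches to TATAA, which are the 2 strands of a single site. It held 0 matches to TGANGTCA. The internal window held 1 match to TGANGTCA and 0 to the other motifs. Among 32851 RefSeq windows of the same length, 32.7% held GGGCGG, 22.8% TATAA and 7.49% TGANGTCA. A match describes the letters only.

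The full-length transcript held the largest share of Ace in each group. Levels between transcripts and genes are given in TPM, which corrects for transcript length and library size. This transcript, Ace-201 (4906 bases), carried 53.8% ± 4.78 (SD, n = 4) of the TPM of Ace in chow control and 51.6% ± 3.25 (n = 5) in high-fat renin. That of the internal start, Ace-202 (2418 bases), was assigned 13.3% ± 6.17 in chow control. In the other groups its share was 18.9% ± 4.61 (chow renin), 18.8% ± 6.72 (high-fat renin) and 19.2% ± 6.98 (high-fat control). These ranges overlapped in all 4 groups. The transcripts share most of their exons, so the split is an estimate, and no read was shown here to start at the internal site. Ace-203 (3649 bases) took most of the rest, 29.5% to 32.5% by group mean.

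A receptor gene and the converting enzyme gene led the members by level. Over all 21 libraries Agtr1a stood at 15.5 ± 3.74 TPM (SD) and Ace at 14.9 ± 3.77 TPM. Atp6ap2 followed with 7.25 ± 1.19 TPM and Lnpep with 6.15 ± 0.656 TPM. Nr3c2 (2.21 ± 0.543 TPM) and Enpep (1.84 ± 0.378 TPM) were lower, and Agt was near the bottom of the detected members with 0.675 ± 0.223 TPM. Some neighbours in this order were not separated: Agtr1a exceeded Ace in 14 of 21 libraries, Atp6ap2 exceeded Lnpep in 17 and Nr3c2 exceeded Enpep in 14. Ace exceeded Atp6ap2, Lnpep exceeded Nr3c2 and Enpep exceeded Agt in 21 of 21 libraries.

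**Figure D1:**
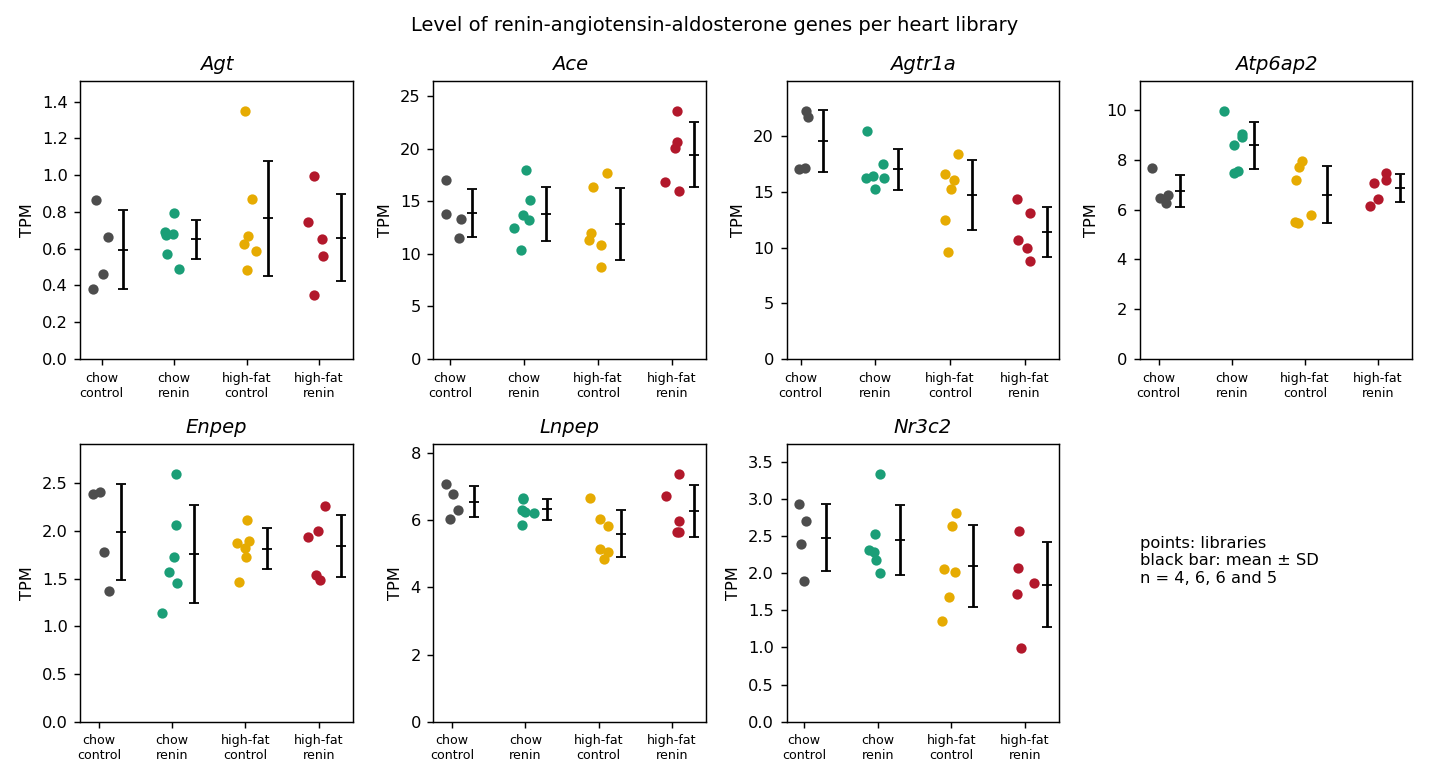
Level in TPM (y axis, from 0) of the 7 members that passed the filter on low counts, by group (x axis). Points are libraries and bars are mean ± SD (n = 4, 6, 6 and 5). Ace is highest in high-fat renin (16.0 to 23.6 TPM) and Agtr1a lowest there (8.84 to 14.4 TPM).

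The heart's own renin gene was almost unread. Ren1 (chromosome 1, 133350510 to 133360325) had reads in 4 of 21 libraries, 8 in all. The library with the most, 5 reads, was in high-fat control, and the chow control libraries had 0. Both renin groups had at most 1 read per library, so Ren1 gave no check of the vector labels. Whether the vector's renin sequence was among the transcripts quantified is not given in the sources used here. The AT2 receptor gene Agtr2 (chromosome X, 21484544 to 21489164) had reads in 7 libraries, 13 in all and at most 4 in a library. A count of 0 allows up to 3 reads, which is 0.101 to 0.167 CPM in these libraries and covers counting error only. Neither gene passed the filter, and no difference was tested.

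The substrate gene Agt (chromosome 8, 124556534 to 124569706, minus strand) was read at low depth, with 16 to 70 reads per library. Chow control libraries 1 to 4 had 0.797, 1.78, 1.30 and 0.97 CPM, and the 6 chow renin libraries had 0.942 to 1.44 CPM (median 1.24). High-fat control had 1.15 to 2.77 CPM (median 1.41) and high-fat renin libraries 1 to 5 had 1.90, 1.39, 1.15, 0.732 and 1.5 CPM. All 4 groups overlapped, and the highest library was high-fat control replicate 3. Its mean was 1.21 CPM in both chow groups. In high-fat control against chow control its log2 fold change was 0.49 (SE 0.29; edgeR quasi-likelihood test, Benjamini-Hochberg adjusted p = 0.56), its largest of the 6 comparisons.

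Ace transcripts were more abundant in hearts with both the high-fat diet and renin. Here and for the other members, values between groups are CPM normalized by the trimmed mean of M-values. Chow control libraries 1 to 4 had 67.1, 70.0, 80.1 and 58.8 CPM of Ace, and chow renin had 47.8 to 77.7 CPM (median 61.7). High-fat control had 51.2 to 84.8 CPM (median 62.4). High-fat renin libraries 1 to 5 had 111, 103, 80.1, 77.2 and 98.5 CPM. Replicates 1, 2 and 5 of high-fat renin lay above the highest library of each other group, whereas replicates 3 and 4 fell within the range of high-fat control.

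Against high-fat control, Ace rose by 0.51 on the log2 scale (SE 0.13, 1.43-fold; edgeR adjusted p = 0.0181), and 3 of 5 hearts exceeded all 6 controls. Against chow renin it rose by 0.60 (SE 0.13, 1.52-fold; edgeR adjusted p = 0.00209), and 4 of 5 hearts exceeded all 6. Against chow control the difference was 0.44 (SE 0.15; edgeR adjusted p = 0.0696) and did not pass, though it did without replicate 3 of chow control (0.0498) or 3 or 4 of high-fat renin (0.0496 and 0.0376). Renin on chow gave a difference of -0.16 (SE 0.14; edgeR adjusted p = 0.553), and the diet without renin one of -0.07 (SE 0.14; edgeR adjusted p = 0.904). The effect of renin differed between diets: the interaction, in which the effect on chow is subtracted from the effect on the richer diet, was 0.67 (SE 0.20; edgeR adjusted p = 0.0298). In whole tissue, a change in the number of cells of a type and a change in RNA per cell cannot be told apart.

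The calls for Ace rested on a few libraries. The call against high-fat control was lost without replicate 1, 2 or 5 of high-fat renin (edgeR adjusted p = 0.0684, 0.0536 and 0.0518), whereas the call against chow renin held in all 11 fits that left out a library. The interaction was lost without replicate 2 or 3 of chow control, 4 of chow renin, or 1, 2 or 5 of high-fat renin (highest edgeR adjusted p = 0.0708). It was also lost with a replicate block (0.63; edgeR adjusted p = 0.0691), with upper-quartile factors (0.61; edgeR adjusted p = 0.0522), with limma (0.60; adjusted p = 0.117) and with the central nervous score (0.87, SE 0.48; edgeR adjusted p = 1). The difference from high-fat control was no longer called once the clock score was added (0.33, SE 0.18; edgeR adjusted p = 0.764). With the central nervous score, that from chow renin was 0.76 (SE 0.37; edgeR adjusted p = 0.982). That score left 37 of all genes called in this comparison, where 3440 were called without it. The summed day clock markers, given above, did not overlap between the high-fat groups. The 4 night markers, which the clock score also uses, did (30.87 to 53.47 CPM with renin, 28.63 to 33.74 CPM without). The central neuron and astrocyte markers did not overlap between high-fat renin and chow renin. Nor did the 6 oligodendrocyte markers of the central nervous score (23.94 to 44.79 and 92.7 to 157.9 CPM). The 6 endothelial markers, 6 of 6 with reads, summed to 699 to 876 CPM with renin on the high-fat diet and 650 to 918 CPM without it, so these groups overlapped. High-fat renin replicates 1, 2 and 5, highest in Ace, had 858, 834 and 876 CPM, and replicates 3 and 4 had 699 and 757 CPM. In high-fat control the library highest in Ace, replicate 3, had the lowest sum (650 CPM). In chow renin the endothelial markers summed to 597 to 748 CPM, below 4 of the 5 high-fat renin libraries. The part of these markers in the result was not tested.

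The libraries high in atrial markers held the highest Ace of chow control (80.1 CPM), of chow renin (77.7 CPM) and of high-fat control (84.8 CPM). Without these 5 libraries Ace was 0.64 above high-fat control (SE 0.11; edgeR adjusted p = 0.0028) and 0.75 above chow renin (SE 0.12; edgeR adjusted p = 0.000204). The difference from chow control was then called (0.56, SE 0.13; edgeR adjusted p = 0.0141), and the interaction was 0.83 (SE 0.17; edgeR adjusted p = 0.00425). With an atrial score in the fit of all libraries, the same differences were 0.52, 0.66, 0.46 and 0.71 (edgeR adjusted p = 0.00811, 0.000413, 0.0336 and 0.00996).

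Agtr1a, on chromosome 13 from 30336441 to 30382867, was lowest in the same hearts. Chow control libraries 1 to 4 had 34.7, 39.8, 31.7 and 44.1 CPM, and chow renin had 28.1 to 31.4 CPM (median 30.4). High-fat control had 21.1 to 38.8 CPM (median 31.9). High-fat renin libraries 1 to 5 had 19.6, 24.3, 26.2, 25.2 and 16.8 CPM. Each of these 5 lay below every library of both chow groups. Of all genes, 10.0% did not overlap between high-fat renin and chow control, in either direction. Between high-fat renin and chow renin the share was 15.3%. High-fat control replicate 6, at 21.1 CPM, was the lowest of its group and lay within the high-fat renin range.

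Against chow control, Agtr1a fell by 0.74 on the log2 scale in high-fat renin (SE 0.14, 0.597-fold; edgeR adjusted p = 0.00271). It fell by 0.50 against high-fat control (SE 0.13, 0.709-fold; edgeR adjusted p = 0.0163), with 2 of 5 libraries below all controls, and by 0.42 against chow renin (SE 0.13, 0.748-fold; edgeR adjusted p = 0.0206). The single treatments did not pass: renin on chow gave -0.33 (SE 0.13; edgeR adjusted p = 0.119) and the diet alone -0.25 (SE 0.13; edgeR adjusted p = 0.513). All 6 chow renin libraries nonetheless lay below the 4 chow control libraries. Of all genes, 15.1% did not overlap between these groups, in either direction. The interaction of -0.17 (SE 0.19; edgeR adjusted p = 0.652) did not pass, so the effect of renin on Agtr1a was not shown to differ between diets.

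The call for Agtr1a against chow control held in all 9 fits that left out a library (edgeR adjusted p from 0.00195 to 0.0163). Those against high-fat control and chow renin were lost without high-fat renin replicate 1 (edgeR adjusted p = 0.0637 and 0.0586) or 5 (0.0553 and 0.0677). The call against high-fat control was also lost with only these groups in the fit (-0.50; edgeR adjusted p = 0.0814) and with limma (-0.34; adjusted p = 0.12). With the clock score in the fit, the 3 calls were lost, at -0.52 (SE 0.23; edgeR adjusted p = 0.72) against chow control, -0.36 (SE 0.17; edgeR adjusted p = 0.698) against high-fat control and -0.37 (SE 0.13; edgeR adjusted p = 0.0617) against chow renin. The central nervous score ended the call against chow renin too (-0.37, SE 0.34; edgeR adjusted p = 0.998). Without the 5 libraries high in atrial markers, all 3 calls remained: -0.89, -0.57 and -0.50 (edgeR adjusted p = 0.00486, 0.0279 and 0.0414). Agtr1a is known from pericytes, fibroblasts and smooth muscle. The 6 pericyte markers summed to 704 to 858 CPM in high-fat renin and 704 to 882 CPM in chow control, which overlapped. The 6 fibroblast markers (1195 to 1681 and 1009 to 2034 CPM) and 5 smooth muscle markers (242 to 380 and 295 to 346 CPM) overlapped too. In high-fat control the 3 lists summed to 705.7 to 902.5, 1211 to 2417 and 281 to 608 CPM, also with overlap. The cardiomyocyte markers summed to 40100 to 47110 CPM in high-fat renin and 49720 to 60660 CPM in chow control, without overlap. The part of these markers in the result was not tested. The other AT1 gene, Agtr1b, had at most 1 read in any library.

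**Figure D2:**
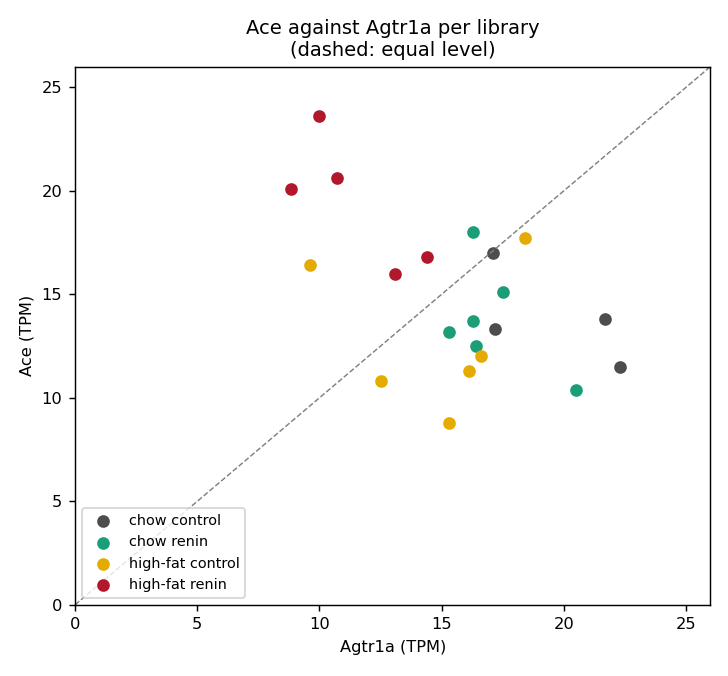
Ace (y axis, TPM) against Agtr1a (x axis, TPM), a point per library, coloured by group, with a dashed line of equal level. The 5 high-fat renin libraries lie above the line, as do 1 chow renin and 1 high-fat control library.

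The order of these genes by level differed by group. Ace divided by Agtr1a, both in TPM, was 0.731 ± 0.207 (SD, n = 4) for chow control, 0.822 ± 0.191 (n = 6) for chow renin and 0.92 ± 0.406 (n = 6) for high-fat control. With diet and renin combined it was 1.78 ± 0.566 (n = 5), with single values of 2.35, 1.92, 1.16, 1.22 and 2.27. Ace was above Agtr1a in 5 of 5 high-fat renin libraries, 0 of 4 chow control, 1 of 6 chow renin and 1 of 6 high-fat control libraries. The exceptions were chow renin replicate 1 (1.1) and high-fat control replicate 6 (1.70). This ratio is a description of the genes already tested.

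The peptidase genes Enpep (chromosome 3, 129269175 to 129332720) and Lnpep (chromosome 17, 17521410 to 17625050) passed in none of the 6 comparisons. On chow, Enpep ranged from 6.82 to 11.2 CPM without renin and 5.44 to 9.95 CPM with it, and on the high-fat diet from 8.11 to 10.0 and 7.69 to 9.83 CPM, so the groups overlapped. Its largest difference was -0.26 for renin on chow (SE 0.15; edgeR adjusted p = 0.272). Lnpep was even across libraries, with group means of 88.4 to 99.1 CPM. Chow control libraries had 106, 105, 92.0 and 93.8 CPM of Lnpep, and the 6 chow renin libraries had 84.0 to 90.1 CPM (median 89.0), below each of them. That difference was -0.17 (SE 0.07; edgeR adjusted p = 0.147). Between these groups 15.1% of all genes did not overlap, in either direction.

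The (pro)renin receptor gene Atp6ap2 (chromosome X, 12587801 to 12617049) was highest in chow renin. Its values were 17.2, 16.9, 19.1 and 16.7 CPM in chow control and 18.4 to 22.7 CPM (median 20.6) in chow renin. High-fat control had 15.6 to 20.7 CPM (median 18.7), and high-fat renin 17.3, 16.7, 18.2, 17.3 and 19.0 CPM. In chow renin 4 of 6 libraries lay above all chow controls. The difference of 0.23 (SE 0.09; edgeR adjusted p = 0.0811) did not pass, nor did that of high-fat renin from chow renin, -0.22 (SE 0.08; edgeR adjusted p = 0.0567), or the interaction, -0.30 (SE 0.12; edgeR adjusted p = 0.124). The second of these was called under 7 of 13 alternatives (adjusted p = 0.0254 to 0.0476). With the central nervous score in the fit, the difference on chow was -0.28.

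The mineralocorticoid receptor gene Nr3c2 (chromosome 8, 76899442 to 77245012) varied widely within groups. Chow control had 13.5, 15.6, 17.4 and 18.4 CPM, chow renin 12.8 to 18.7 CPM (median 14.7) and high-fat control 11 to 19.7 CPM (median 14.2). High-fat renin had 6.41, 11.9, 13.0, 18.5 and 11.6 CPM. The lowest and one of the higher values of all 21 libraries thus came from the same group. High-fat renin differed from chow control by -0.40 (SE 0.21; edgeR adjusted p = 0.259), and 4 of its 5 libraries lay below all chow controls. Without high-fat renin replicate 4, Nr3c2 was called lower than in high-fat control (-0.52; edgeR adjusted p = 0.0492) and chow renin (-0.50; edgeR adjusted p = 0.0444).

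Counted over the 7 tested members, the calls in each comparison were few. In chow renin against chow control, edgeR called 0 of 7, where 13.5% of 15216 genes were called (10.1% higher and 3.36% lower). Unadjusted, 3 had a p under 0.05 (Agtr1a, Atp6ap2 and Lnpep), as did 25.1% of all genes, and DESeq2 called 0. In high-fat control against chow control, edgeR called 0 of 7 and 0.0657% of all genes (0.0131% higher and 0.0526% lower). There 0 members had an unadjusted p under 0.05, and DESeq2 called 0. Of the same 7, 1 was called in high-fat renin against chow control (8.29% of all genes, 4.05% higher and 4.25% lower), and Ace was added to Agtr1a by DESeq2. Against high-fat control 2 were called, where 11.1% of all genes were (6.07% higher and 5.08% lower). Against chow renin 2 were called, where 22.6% were (9.8% higher and 12.8% lower), and in the interaction 1, where 10.4% were (3.14% higher and 7.3% lower). Groups that did not overlap in CPM were counted apart from the test. Against chow control this held for 2 of 7 members in chow renin (15.1% of all genes), 1 in high-fat renin (10.0%) and 0 in high-fat control (2.42%). In high-fat renin it held for 0 against high-fat control (3.47%) and 1 against chow renin (15.3%). Comparisons that share a control group are not independent.

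**Figure D3:**
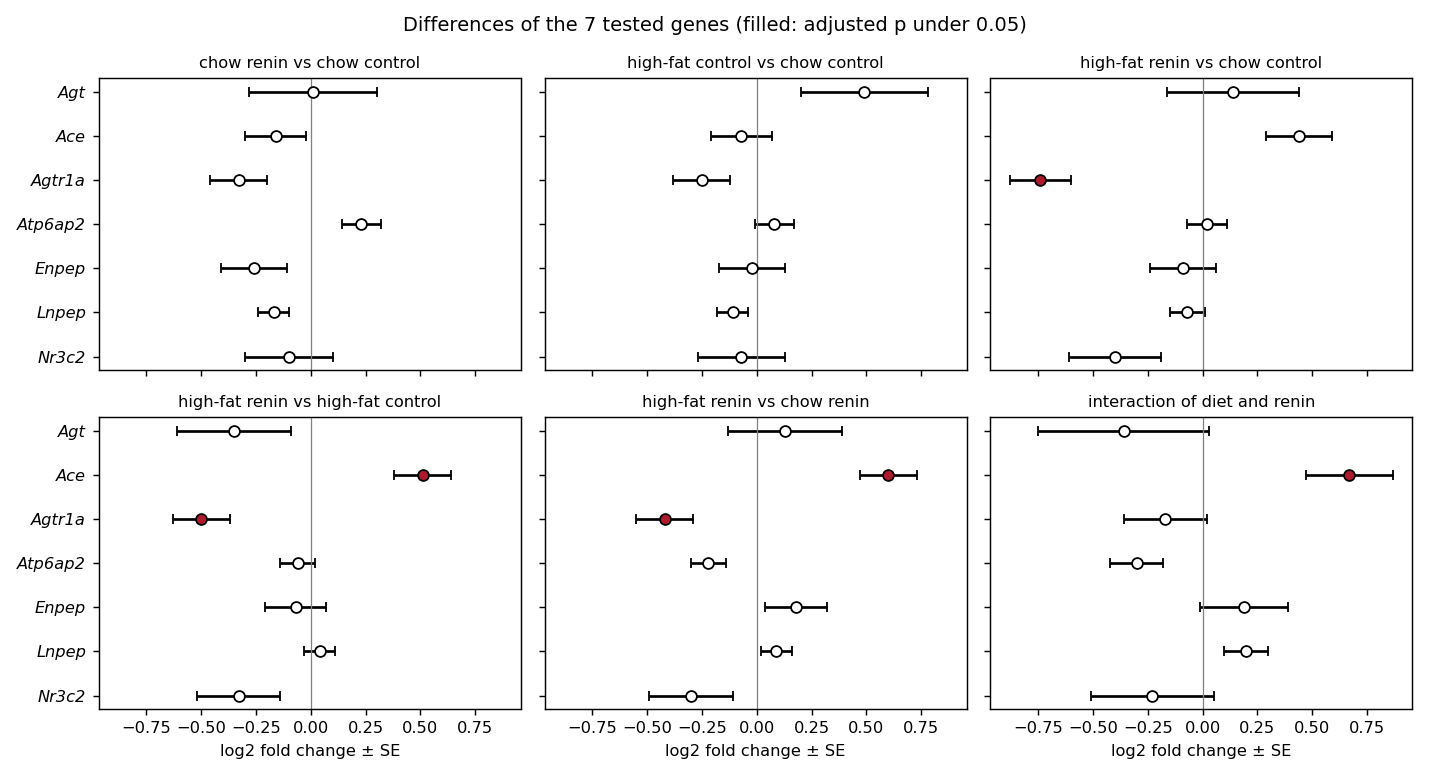
Log2 fold change ± SE (x axis) of the 7 tested members (y axis) in the 6 comparisons, with filled points at an adjusted p under 0.05. Ace and Agtr1a are the filled points, Ace to the right in 3 comparisons and Agtr1a to the left in 3.

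The authors' deposited table gives a comparison of their own, of the high-fat diet with virus against a group that is not stated. In the authors' deposited table the log2 fold change was -0.63 for Agtr1a (adjusted p = 0.000635) and 0.30 for Ace (adjusted p = 0.0274). For Nr3c2, Lnpep, Enpep, Agt and Atp6ap2 the authors' deposited table lists values from -0.14 to 0.02, with adjusted p from 0.287 to 0.965.

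Other genes of the pathway were read from 6 lists, of 91 genes in all, of which 81 were tested. The last steps that make aldosterone were not detected: Cyp11b1 and Cyp11b2, which encode the last enzymes of corticosterone and aldosterone synthesis, had 0 reads in 21 libraries. Mas1, a receptor for angiotensin 1-7, stood at 0.535 to 1.02 TPM by group mean and was called in no comparison. Hsd11b2, the enzyme that shields the mineralocorticoid receptor from glucocorticoids, had at most 9 reads in a library, and the glucocorticoid receptor gene Nr3c1 stood at 6.60 to 7.66 TPM by group mean.

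With renin on the high-fat diet, against high-fat control, 4 of 15 tested peptide-processing genes rose and 0 fell, where 6.07% of all genes rose (median log2 fold change 0.04, against -0.006 over all genes). Prep, a prolyl endopeptidase that can form angiotensin 1-7, rose by 0.49 (SE 0.10; edgeR adjusted p = 0.0029), from 38.4 ± 5.44 to 53.9 ± 8.66 CPM, and kept its call in all 11 fits without a library. Nln, Ctsd and Dpp3 also passed but lost their calls in 6, 6 and 8 of these fits, among them those without high-fat renin replicate 1, 2 or 5 (highest adjusted p = 0.151, 0.145 and 0.184). Among 13 alternatives they lost them in 7, 4 and 5. Of 15 proton pump subunits, the partners of Atp6ap2, 5 rose and 0 fell (median 0.10), beside the same 6.07% of all genes. Atp6v1h rose by 0.42 (SE 0.08; edgeR adjusted p = 0.00303) and kept its call in all 11 fits without a library, and Atp6v0a2 lost it without high-fat renin replicate 1 (adjusted p = 0.0821). Atp6v0e, Atp6v1c1 and Atp6v1b2 lost theirs in 6, 7 and 7 fits (highest adjusted p = 0.0802, 0.12 and 0.188), those without high-fat renin replicate 1 or 2 among them. Among 13 alternatives they lost them in 5, 8 and 5.

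In the same comparison 6 of 15 genes known to respond to angiotensin II rose and 0 fell (median 0.77), and of all genes 6.07% rose. Acta1, the skeletal actin of the stressed heart, rose by 3.91 (SE 0.57; edgeR adjusted p = 0.00106). Its high-fat control libraries had 56.5 to 184 CPM and the high-fat renin libraries 670 to 2500 CPM, without overlap. Between these groups 3.47% of all genes did not overlap, in either direction. Rcan1, a target of calcineurin signalling, rose by 1.47 (SE 0.26; edgeR adjusted p = 0.00243) and Myh7, the slow myosin heavy chain, by 2.57 (SE 0.49; edgeR adjusted p = 0.00371). Nppb, Nppa and Timp1 also passed. Nppb lost its call without high-fat renin replicate 1 (adjusted p = 0.105), and Nppa without replicate 1, 2 or 5 (highest adjusted p = 0.084).

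Among genes of receptors and coupling 1 of 17 rose against high-fat control and 0 fell, near the 6.07% of all genes that rose. That gene, Grk5, a kinase that switches off receptors, rose by 0.48 (SE 0.15; edgeR adjusted p = 0.0361) but lost its call in 9 of 11 fits without a library (highest adjusted p = 0.109). Against chow control it rose by 0.96 (SE 0.17; edgeR adjusted p = 0.00176), and Rgs2, which restrains the G protein used by the AT1 receptor, fell by 1.21 (SE 0.24; edgeR adjusted p = 0.00537). Both calls held in all 9 such fits. Rgs2 stood at 65.5 ± 6.93 CPM in chow control and 28.3 ± 11 CPM in high-fat renin, which did not overlap. Between these groups 10.0% of all genes did not overlap, in either direction.

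Among 12 corticosteroid-responsive genes, 1 fell with renin on the high-fat diet. That gene, Klf9, a target of the glucocorticoid receptor, fell by 0.26 (SE 0.07; edgeR adjusted p = 0.0264) and lost its call without replicate 4 of the controls or 1, 2 or 5 of high-fat renin (highest adjusted p = 0.0923). The list of corticosteroid synthesis and receptor genes held 7 tested genes, among them Nr3c1 and Fkbp4, a chaperone partner of steroid receptors. The synthesis enzymes Cyp11a1, Hsd3b1, Cyp21a1, Cyp11b1 and Cyp11b2 were too low to be tested. Of the 7, 1 rose and 1 fell, where 6.07% of all genes rose and 5.08% fell. Star, which moves cholesterol into mitochondria, rose by 0.68 (SE 0.17; edgeR adjusted p = 0.0139) and Hsd11b1, which regenerates corticosterone, fell by 0.36 (SE 0.11; edgeR adjusted p = 0.0286). Star lost its call without high-fat renin replicate 1 (adjusted p = 0.0576), and Hsd11b1 without replicate 5 of the controls or 1 or 5 of high-fat renin (highest adjusted p = 0.0964). Star is itself on the list of adrenal cortex markers, of which 4 of 6 were read, and made up most of their sum: 3.95 of 4.18 CPM by mean in high-fat renin and 2.46 of 2.61 CPM in high-fat control. Cyp11b1 and Cyp11b2, the defining markers of that tissue, were at 0.

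On chow, renin gave other calls. Plcb1, a phospholipase downstream of the AT1 receptor, rose by 1.19 (SE 0.15; edgeR adjusted p = 2.07e-06), and the kinin receptor gene Bdkrb1 by 2.37 (SE 0.41; edgeR adjusted p = 0.000168), from at most 4 reads to 12 to 27 reads per library. Gnaq passed too, so 3 of 17 receptor and coupling genes rose and 0 fell, where 10.1% of all genes rose. However, Gnaq lost its call in 7 of 10 fits without a library (highest adjusted p = 0.0988) and under 7 of 13 alternatives. Lcn2, a target of the mineralocorticoid receptor, rose by 1.72 (SE 0.18; edgeR adjusted p = 1.18e-07), and Spp1, osteopontin, by 2.03 (SE 0.09; edgeR adjusted p = 1.69e-13). The latter calls remained with the central nervous score in the fit, whereas those of Plcb1 and Bdkrb1 were lost. The sign of Plcb1 turned (-0.09), but Bdkrb1 was larger, at 3.55 (SE 1.08; edgeR adjusted p = 0.293).

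On chow, 10.1% of all genes were called higher with renin and 3.36% lower. The other lists gave 1 of 15 peptide-processing genes lower (Rnpep, lost without chow control replicate 4, adjusted p = 0.059), 1 of 7 of the corticosteroid synthesis and receptor list lower (Fkbp4) and 1 of 15 proton pump subunits higher (Atp6v1a). Corticosteroid-responsive genes gave 0 of 12 lower, with Lcn2 among those higher, and angiotensin-responsive genes 2 of 15 higher, Spp1 and Timp1. With the central nervous score in the fit the calls of Fkbp4, Atp6v1a, Rnpep and Timp1 were lost, and the sign of Rnpep turned (0.05). The others were Fkbp4 at -0.29 (SE 0.22), Atp6v1a at 0.66 (SE 0.32) and Timp1 at 1.44 (SE 0.83). The clock score also ended the calls of Fkbp4 (-0.27, SE 0.10), Atp6v1a (0.39, SE 0.15) and Rnpep (-0.26, SE 0.10). For high-fat control against chow control edgeR called 0 genes of each list.

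**Figure D4:**
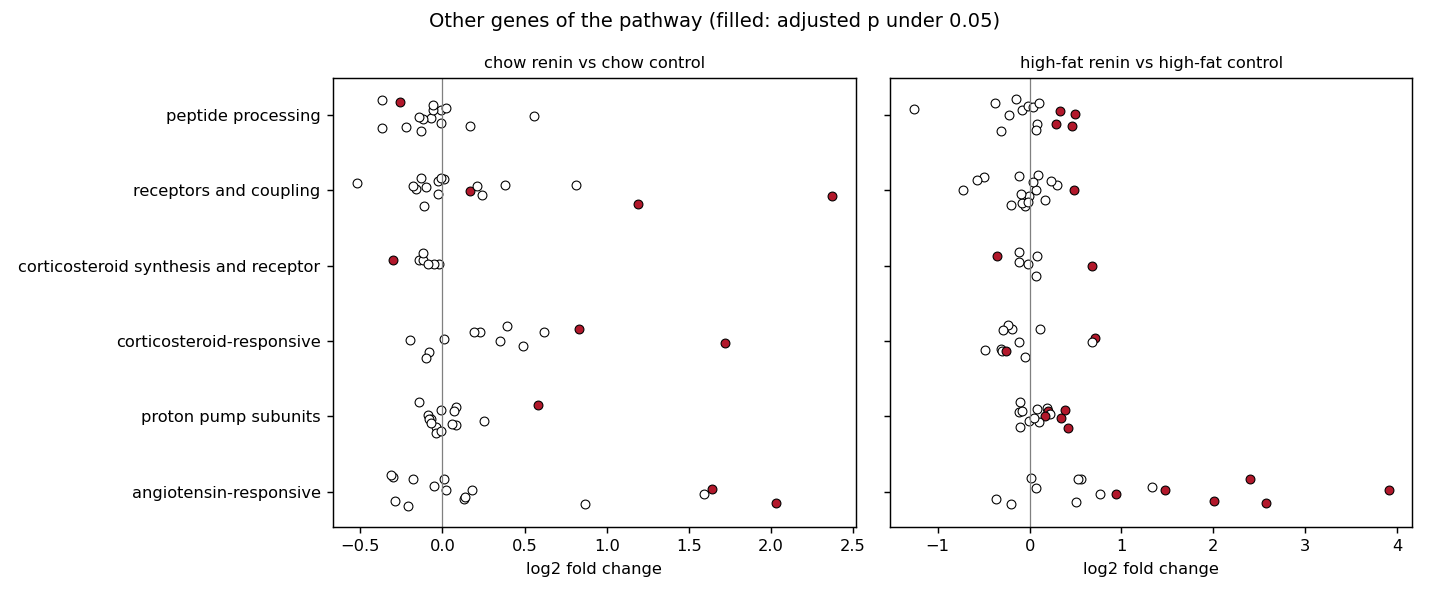
Log2 fold change (x axis) of each tested gene of the 6 other pathway lists (rows), for renin on chow (left) and on the high-fat diet (right), with filled points at an adjusted p under 0.05. The filled point farthest right is Bdkrb1 on chow (2.37) and Acta1 on the high-fat diet (3.91).

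In high-fat renin against chow control, 4.05% of all genes were called higher and 4.25% lower. The lists gave 1 of 15 peptide-processing genes higher (Ctsd, lost in 7 of 9 fits without a library, adjusted p up to 0.111) and 2 of 15 proton pump subunits higher (Atp6v1h and Atp6v0a2). Angiotensin-responsive genes gave 5 of 15 higher (Timp1, Rcan1, Acta1, Myh7 and Postn), of which Timp1 and Rcan1 kept their calls in each of these fits and Acta1, Myh7 and Postn lost theirs in 3, 5 and 5 (highest adjusted p = 0.0616, 0.102 and 0.104). Corticosteroid-responsive genes gave 2 of 12 lower, Klf9 and Per1, and the synthesis and receptor list gave 0 of 7. Klf9 and Per1 lost their calls in 3 and 5 fits (highest adjusted p = 0.0564 and 0.11), and Atp6v0a2 in 6 (0.162). Per1 is also a clock gene and belongs to the day score. With the clock score in the fit, each pathway call named for high-fat renin against chow control or high-fat control was lost, apart from Timp1 against high-fat control, whose fit was not repeated. That score left 0 of all genes called in either comparison. Against high-fat control Acta1 was then 3.08 (SE 0.71) and Myh7 2.09 (SE 0.62), whereas Rcan1 was 0.50 (SE 0.20) and Nppb 0.58 (SE 0.58). Against chow control Timp1 was 1.24 (SE 0.47) and Grk5 0.73 (SE 0.26), whereas Rgs2 was -0.28 (SE 0.27) and Rcan1 -0.08 (SE 0.26).

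In high-fat renin against chow renin, 9.8% of all genes were called higher and 12.8% lower. The lists gave 5 of 15 peptide-processing genes higher (Ctsa, Ctsd, Ctsb, Dpp3 and Prep) and 0 lower. Ctsa, the carboxypeptidase cathepsin A, rose by 0.24 (SE 0.04; edgeR adjusted p = 0.000261), and Dpp3 and Prep lost their calls without high-fat renin replicate 1 (adjusted p = 0.0652 and 0.113). Receptor and coupling genes gave 2 of 17 higher (Grk5 and Gna12) and 4 lower (Plcb1, Bdkrb1, Bdkrb2 and Rgs2). Proton pump subunits gave 4 of 15 higher and 1 lower (Atp6v1a), of which Atp6v0a2 and Atp6v0e kept their calls in all 11 fits without a library. Atp6v1h, Atp6ap1 and Atp6v1a lost theirs in 8, 5 and 3 of these fits (highest adjusted p = 0.272, 0.157 and 0.0631). The call of Atp6v1h was also lost under 13 of 13 alternatives (lowest adjusted p = 0.0521) and that of Atp6ap1 under 8 of 13. Angiotensin-responsive genes gave 4 of 15 higher (Rcan1, Postn, Col3a1 and Acta1) and Spp1 lower, and Acta1 lost its call in 2 fits (highest adjusted p = 0.0652). Corticosteroid-responsive genes gave 0 of 12 higher and 4 lower (Lcn2, Sgk1, Klf9 and Per1), and Star and Nr3c1, 2 of 7 of the corticosteroid synthesis and receptor list, were higher. Nr3c1, Per1, Sgk1 and Klf9 lost their calls in 8, 7, 4 and 4 of the 11 fits (highest adjusted p = 0.137, 0.0914, 0.0797 and 0.12), and Nr3c1 under 8 of 13 alternatives. With the central nervous score in the fit Lcn2 and Spp1 kept their calls and the other genes named for this comparison whose fits were repeated lost theirs. Some of these differences were about as large or larger, with a wider error, as for Postn (1.73, SE 1.25), Acta1 (2.06, SE 1.43), Ctsa (0.24, SE 0.12) and Bdkrb1 (-2.95, SE 0.89). Others came close to 0, such as Grk5 (0.06, SE 0.35) and Atp6v0a2 (0.02, SE 0.21).

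In the interaction 2 of 15 peptide-processing genes were higher (Prep and Ctsa), 2 of 15 proton pump subunits (Atp6v0a2 and Atp6v0e) and 1 of 7 of the corticosteroid synthesis and receptor list (Star), where 3.14% of all genes were higher and 7.3% lower. Of angiotensin-responsive genes Acta1 and Rcan1 were higher and Spp1 lower, and Plcb1, Bdkrb1 and Lcn2 of the other lists were lower. Prep, with an interaction of 0.61 (SE 0.14; edgeR adjusted p = 0.00497), Acta1, Spp1, Plcb1, Bdkrb1 and Lcn2 kept their calls in all 21 fits without a library. Ctsa, Star, Atp6v0a2, Atp6v0e and Rcan1 lost theirs in 7, 17, 2, 17 and 5 of these fits (highest adjusted p = 0.0828, 0.122, 0.0718, 0.0986 and 0.0704). With the central nervous score in the fit Lcn2 and Spp1 kept their calls and the other genes of this paragraph lost theirs. Plcb1 was then at 0.22, Atp6v0a2 at -0.08 and Rcan1 at -0.43. Acta1 (3.36, SE 1.86), Bdkrb1 (-3.77, SE 1.22), Atp6v0e (0.41, SE 0.20) and Ctsa (0.23, SE 0.16) were about as large or larger, with a wider error. Star was 0.62 (SE 0.60), and Prep was smaller (0.28, SE 0.32). The replicate block ended the call of Rcan1. Among 12 alternatives, the calls of Atp6v0e, Ctsa and Star were lost in 8, 7 and 6. Rcan1 lost its call with the same sign in 4 and turned sign in 1.

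Likeness of pattern was described by Pearson's r of log2 CPM over the 21 libraries, which share their depth and group structure. Ace was most like Igfbp7 (r = 0.94, and 0.89 after group means were subtracted), Pi16 (0.94 and 0.88) and Itgbl1 (0.91 and 0.86). Agtr1a was most like Adhfe1 (0.92 and 0.85), Aldh4a1 (0.92 and 0.81) and Fgf13 (0.91 and 0.81). The closest genes were Pla2g7 for Atp6ap2 (0.88), Dnm1l for Lnpep (0.87), Npc1 for Nr3c2 (0.87), Pigv for Enpep (0.83) and Zfp120 for Agt (0.67). The second closest to Enpep was the clock gene Nr1d1 (0.81). Between members, Ace and Agtr1a ran opposite (r = -0.66, and -0.50 after group means), and Agtr1a and Nr3c2 ran together (0.61 and 0.44). Ace and Atp6ap2 gave 0.07 over all libraries and 0.66 after group means, the highest of the member pairs on that measure.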

How the data were processed

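RNA of 21 mouse hearts was sequenced. Per the submitters' processing notes, the tools named were Salmon 1.10.2 and DESeq2 1.40.2, with GRCm38 (mm10) as the build. The deposited transcript tables hold estimated counts with decimals, and TPM that the authors' quantification corrected for transcript length. A further deposited table holds the authors' log2 fold change and adjusted p-value, and its 21 per-sample columns were not used here. Of 119215 transcripts per table, 98.0% were matched to GENCODE M21 genes. Gene sums of the estimated counts, rounded to whole numbers, took the place of the raw counts that the tests were laid out for. Depth was 18.7 to 29.3 M per library.

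Of 23718 genes with reads, filterByExpr kept 15216, among them 7 of 9 members. edgeR 4.0.16 (R 4.3.3) fitted 1 quasi-likelihood model with a term per group and TMM factors, robustly, with Benjamini-Hochberg adjustment over all genes tested and calls at an adjusted p under 0.05. Standard errors are the log2 fold change over the square root of F. The common biological coefficient of variation was 0.154. The fit was tested on simulated data. The 13 alternatives beside those that leave out a single library used other scalings, filters, samples, a replicate block, DESeq2 1.42.0, limma 3.58.1 on log2(TPM + 1), or a marker score as a covariate. Those that remove a library numbered 21. The atrial score, and the fit of the 16 libraries whose atrial markers summed to under 100 CPM, were chosen after seeing the data. The members, 6 pathway lists, 17 marker lists and tests were chosen with earlier results of these data known. All members are named in each comparison, other pathway genes by lowest p, up to 5 per list, and the 3 genes of most alike pattern by r. Where a list had 6 calls, the sixth is named too. Some results of the corticosteroid-responsive and peptide-processing lists are not reported here.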

Additional observations from a re-analysis of the deposited data

Results flagged for a closer look

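Lnpep in chow renin replicate 4, at 84.0 CPM, stood apart from the other 5 libraries of its group, which lay between 88.7 and 90.1 CPM. The gap was 0.773 of the group's range. It was 1 of 28 groups checked, and chance alone would mark about 1 in 20.

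Ace differed between diets in its response to renin, by the interaction of 0.67 on the log2 scale (edgeR adjusted p = 0.0298). Its effect of renin was 0.51 on the high-fat diet and -0.16 on chow. The interaction was no longer called in 6 of 21 fits without a library and under 4 of 12 alternatives, among them the replicate block (edgeR adjusted p = 0.0691).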

How the results depend on the processing

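The number of members called moved as follows. For renin on chow it went from 0 to 2 with only the groups compared (Agtr1a and Atp6ap2) and to 1 with libraries thinned to equal totals (Atp6ap2). For high-fat control against chow control it was 0 in each fit run. For high-fat renin against chow control it went from 1 to 2 with DESeq2, with only the groups compared, with the atrial score and without the 5 libraries high in atrial markers (both chosen after seeing the data), and to 0 with the clock score; without 1 library it was 1 to 2. Against high-fat control it went from 2 to 1 (Ace) with only the groups compared or limma and to 0 with the clock score; without 1 library it was 0 to 3. Against chow renin it went from 2 to 3, with Atp6ap2 added, under 7 of 13 alternatives (edgeR with DESeq2's size factors or upper-quartile factors, DESeq2, a mean of at least 1 CPM, only the groups compared, thinned libraries and limma), to 1 (Ace) with the clock score and to 0 with the central nervous score; without 1 library it was 1 to 3. The interaction went from 1 to 0 with upper-quartile factors, limma, the central nervous score or the replicate block, and was 0 to 1 without 1 library.

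Same-numbered libraries were not treated as paired in the main fit. Their deviations correlated at -0.226 to 0.421 (median 0.0775, 28 pairs), and 7 of 21 libraries were closest to their own number. How many would be so by chance was not computed, and a shared origin of same-numbered libraries was not tested. Replicate 3 was high in atrial markers in all 4 groups (756, 343, 698 and 517 CPM). With the replicate block the Ace interaction had an edgeR adjusted p of 0.0691. The clock score left 0 of all genes called in high-fat renin against either control group (1262 and 1696 without it), and the central nervous score left 31 of 2048 calls in number for renin on chow.

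These log2 fold changes of uncalled members turned sign. With the clock score, Agt was -0.52 for renin on chow, -0.60 for high-fat renin against chow control and -0.08 against chow renin; Nr3c2 was 0.50 for renin on chow, 0.19 for high-fat control, and 0.34 and 0.15 for high-fat renin against chow control and high-fat control; Lnpep was -0.03 for high-fat renin against high-fat control. With the central nervous score, Atp6ap2 was -0.28 for renin on chow, -0.04 for high-fat control, -0.07 and 0.21 for high-fat renin against chow control and chow renin, and 0.25 in the interaction. Enpep was 0.47, 0.16, 0.05, -0.42 and -0.58 in the same order, and Agt -0.16 and Lnpep -0.01 for high-fat renin against chow renin, and Nr3c2 0.14 in the interaction. With limma, Atp6ap2 was -0.04 for high-fat control and 0.06 for high-fat renin against high-fat control, Enpep 0.01 there, and against chow renin Agt -0.0006 and Lnpep -0.01. Agt for renin on chow was -0.03 thinned and -0.02 with the atrial score and -0.002 without the 5 atrial libraries, which gave Enpep 0.05 for high-fat control; Atp6ap2 for high-fat renin against chow control -0.004 with upper-quartile factors. The cause was not tested.

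Of called pathway genes, these turned sign with the central nervous score: Rnpep (0.05) and Plcb1 (-0.09) for renin on chow; Dpp3 (-0.04), Plcb1 (0.21), Nr3c1 (-0.25), Klf9 (0.13) and Rcan1 (-0.23) for high-fat renin against chow renin; Plcb1 (0.22), Atp6v0a2 (-0.08) and Rcan1 (-0.43) in the interaction. Rcan1 for high-fat renin against chow control was -0.08 with the clock score. Without the 5 atrial libraries, which leaves fewer samples, 26 of the 79 pathway calls whose fits were repeated (up to 5 per list and comparison) were lost, and 7 of 19 such calls for high-fat renin against high-fat control.

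Without 1 library, uncalled members turned sign within these ranges: Agt -0.14 to 0.26 for renin on chow; Ace -0.16 to 0.01, Enpep -0.14 to 0.09 and Nr3c2 -0.16 to 0.01 for high-fat control; Agt -0.03 to 0.37, Atp6ap2 -0.01 to 0.06 and Enpep -0.22 to 0.02 for high-fat renin against chow control; Lnpep -0.01 to 0.08 against high-fat control; Agt -0.05 to 0.28 against chow renin. The called differences of Ace and Agtr1a kept their direction in each of the 13 alternatives that gave a value and in each fit without 1 library. Depth limits Ren1, Agtr2 and Agt most.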
